A study of Mus musculus with 12 samples.

Results

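The genes described here are the cytosolic heat shock chaperones of the MC38 tumor transcriptome. They are 10 genes fixed by name, Hsp90aa1, Hsp90ab1, Hspa8, Hspa1a, Hspa1b, Hspa4, Hsph1, Dnaja1, Dnajb1 and Hsf1, out of 18211 mouse genes in the expression table. All 10 passed the filter on low counts, which left 13563 genes to test.

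Chaperones bind proteins that are newly made or partly unfolded and let them fold, mature or be degraded. HSP70 proteins take up such clients with the help of HSP40 (J-domain) partners and of HSP110 proteins, which exchange their nucleotide, and many kinases and receptors are then passed on to HSP90. Under heat or other protein-damaging stress the transcription factor HSF1 binds heat shock elements, which are inverted repeats of the unit GAA, and raises the inducible members of the family. IGF-1R, the receptor that PB-020 inhibits, and the kinase AKT are known clients of HSP90.

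RNA was measured in 12 tumors grown from MC38, a mouse colorectal cancer line, under the skin of female C57BL/6 mice bought at 5 weeks of age. The 4 groups held 3 tumors each and were formed on day 7 after injection of the cells. CK mice were given vehicle only, PB-020 mice the IGF-1R inhibitor PB-020 by mouth at 50 mg/kg each day, anti-PD-1 mice the antibody RMP1-14 on days 9, 12, 15 and 18, and mice of the combination group both agents. All of the mice carried the same tumor line in an immune-competent host, and transcripts of tumor and host cells map to 1 genome. The study reported that the combination reduced tumor growth more than either agent alone. In its last volumes, most tumors given anti-PD-1 alone were also smaller than every CK tumor. Treatment and tumor size therefore cannot be told apart in the groups given the antibody, and the part of size was not tested. The labels do not say that each tumor came from a separate mouse, so the p values measure the spread between these 12 samples.

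Expected counts per tumor summed to between 16545394 and 17217035, so depth hardly differed between groups. Of the 8 epithelial and intestinal markers looked up in these tumors of a colorectal line, only Lgals4 (4.30 to 8.04 FPKM) and Cdh1 (1.59 to 3.96 FPKM) passed the filter, while Krt8 and Krt18 lay at or below 0.14 FPKM and Vil1 and Cdx2 at or below 0.06 FPKM. Anti-PD-1 tumor 1 stood apart in 12 skeletal muscle markers, led by Acta1, with a summed level of 704.0 FPKM against 11.9 to 72.3 in the other 11 tumors. CK tumor 3 stood apart in 6 adipocyte markers, led by Fabp4, with 282.2 FPKM against 29.2 to 64.2 elsewhere. These were bulk samples, so fewer cells of a type and less RNA per cell cannot be told apart.

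The upstream sequences of 4 members are shown because they carry a stretch of the heat shock element that HSF1 binds, and because the nearly identical Hspa1a and Hspa1b show how far these genes can be separated. RefSeq promoters on GRCm38.p6 were matched for 6 of the 10 genes, namely Hspa1a, Hspa1b, Hsph1, Dnajb1, Dnaja1 and Hspa4. Each line gives the 250 bases before the annotated start, 5′ to 3′ on the gene's own strand. Capitals mark 2 adjoining inverted units, GAANNTTC or TTCNNGAA, each of which reads the same on both strands. The stretches lie at chr17:34972157-34972406 (minus strand) for Hspa1a, chr17:34959239-34959488 (minus strand) for Hspa1b, chr5:149636337-149636586 (minus strand) for Hsph1 and chr4:40722218-40722467 (plus strand) for Dnaja1.
Hspa1a: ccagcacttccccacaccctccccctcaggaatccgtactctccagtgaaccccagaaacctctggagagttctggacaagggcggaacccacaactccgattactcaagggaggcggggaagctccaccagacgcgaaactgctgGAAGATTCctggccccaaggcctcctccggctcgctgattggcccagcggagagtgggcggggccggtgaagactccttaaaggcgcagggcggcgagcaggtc
Hspa1b: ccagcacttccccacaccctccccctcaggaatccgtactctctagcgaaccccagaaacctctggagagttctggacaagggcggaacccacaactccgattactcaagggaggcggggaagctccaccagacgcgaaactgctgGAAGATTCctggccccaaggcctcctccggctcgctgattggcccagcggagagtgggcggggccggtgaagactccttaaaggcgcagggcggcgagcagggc
Hsph1: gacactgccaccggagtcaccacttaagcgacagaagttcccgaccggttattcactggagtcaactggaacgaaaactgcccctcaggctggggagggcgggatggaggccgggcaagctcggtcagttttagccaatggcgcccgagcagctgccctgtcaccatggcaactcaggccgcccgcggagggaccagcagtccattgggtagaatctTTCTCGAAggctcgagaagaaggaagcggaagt
Dnaja1: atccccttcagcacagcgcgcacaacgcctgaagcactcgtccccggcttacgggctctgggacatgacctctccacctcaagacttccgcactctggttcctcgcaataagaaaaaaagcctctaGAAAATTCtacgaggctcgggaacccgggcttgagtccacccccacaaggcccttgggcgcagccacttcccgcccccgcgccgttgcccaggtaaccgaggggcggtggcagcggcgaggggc

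Hspa1a and Hspa1b carried the same element, GAAGATTC, 104 to 97 bases before the start, and their upstream stretches differed at 3 of 250 positions (98.8% identity). Hsph1 carried TTCTCGAA 33 to 26 bases before the start used here, and 54 to 47 bases before another annotated start. The Hsph1 gene itself is annotated up to chr5:149636498, within the stretch shown, so part of that stretch lies inside the gene. Dnaja1 carried GAAAATTC 124 to 117 bases before its most upstream start. No 2-unit match stood in the same window of Dnajb1 or Hspa4. Such a pair of units was present in 12.8% of the 32851 mouse promoters of the same length. The longer form with 3 units, GAANNTTCNNGAA or its reverse complement TTCNNGAANNTTC, which contains the shorter one, was found in 0 of the 6 genes upstream of the start and in 0.466% of all promoters. Within the 50 bases after either of its starts, Hsph1 held the 3-unit match TTCTGGAAAGTTC, a form present in 0.603% of promoters when those bases are counted. These are matches of letters, and binding was not measured.

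Levels of the 10 genes spanned 3 tiers on the FPKM scale, which is per length and can be compared between genes. The constitutive HSP70 Hspa8 (mean of 1639 FPKM over the 12 tumors) and the constitutive HSP90 Hsp90ab1 (1556 FPKM) were the most abundant, followed by the inducible HSP90 Hsp90aa1 (447.1 FPKM). Those 3 genes held 93.4% to 94.7% of the members' summed FPKM in every tumor. Next came the HSP110 gene Hspa4 (60.9 FPKM), the HSP40 genes Dnajb1 (43.3 FPKM) and Dnaja1 (38.3 FPKM), Hsf1 (32.1 FPKM), the HSP110 gene Hsph1 (30.6 FPKM) and the inducible HSP70 Hspa1b (25.4 FPKM). Its near copy Hspa1a was the lowest at 2.07 FPKM. Among the CK tumors the neighbours Hspa8 and Hsp90ab1, Dnaja1 and Dnajb1, and Hsph1 and Hspa1b overlapped in level, whereas the other neighbours in this order did not. Spread over the 12 tumors grew from Hsf1 (highest over lowest 1.26), Hspa4 (1.27) and Hsp90ab1 (1.28) to Hspa1b (4.23) and Hspa1a (7.39).

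**Figure D1:**
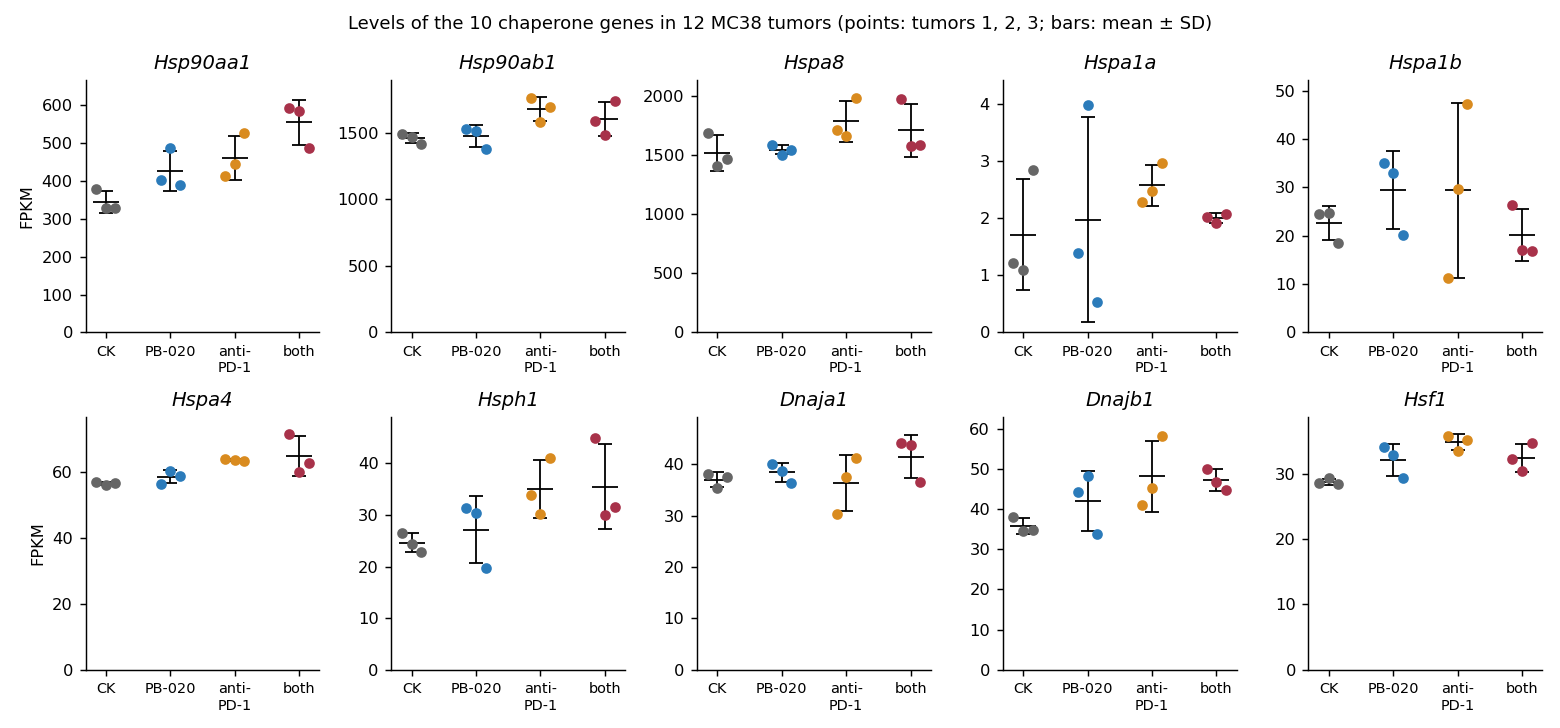
FPKM of each of the 10 genes (vertical axes from 0, 1 scale per gene) in CK, PB-020, anti-PD-1 and combination ("both") tumors. Points are tumors 1, 2 and 3 from left to right and bars are mean ± SD (n = 3). Hsp90aa1 lay between 328.2 and 379.2 FPKM in CK and between 486.0 and 593.3 FPKM in the combination, while Hspa1b spread from 11.2 to 47.3 FPKM within the anti-PD-1 group alone.

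The 3 treated groups were each compared with CK to ask what either agent or both did to chaperone transcripts. All 3 comparisons share the same 3 CK tumors, so their values are given side by side and are not independent of each other. By edgeR's quasi-likelihood test with Benjamini-Hochberg adjustment over all genes tested, 0 members passed an adjusted p of 0.05 with PB-020 alone, 2 were raised with anti-PD-1 alone (Hsp90aa1 and Hsf1) and 2 were raised with the combination (Hsp90aa1 and Hspa4). Over all genes tested the share called was 0% for PB-020 against CK, 4.18% raised for anti-PD-1 and 8.35% raised for the combination. No member was lowered in any of these comparisons. The median log2 change of the 10 genes was 0.17 with PB-020, 0.35 with anti-PD-1 and 0.20 with the combination, beside medians of all genes tested of 0.00 in each.

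Hsp90aa1, on chromosome 12 (chr12:110691036-110696395), encodes the HSP90 form that cells raise under stress. It was the member with the smallest p in the combination, and it is also among the genes that the study displayed as raised in these same tumors, so its direction there is not independent evidence. Its level was 379.2, 328.2 and 328.8 FPKM in the CK tumors and 402.5, 487.0 and 390.1 FPKM in the PB-020 tumors. It was 412.3, 446.0 and 526.1 FPKM in the anti-PD-1 tumors and 593.3, 585.5 and 486.0 FPKM in the combination tumors. Every treated tumor lay above every CK tumor, while the ranges of the treated groups overlapped each other, that of PB-020 and that of the combination only because PB-020 tumor 2 reached the level of combination tumor 3. Group means were 345.4 ± 29.3, 426.5 ± 52.8, 461.5 ± 58.5 and 554.9 ± 59.8 FPKM (SD, n = 3) in CK, PB-020, anti-PD-1 and the combination.

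In the combination Hsp90aa1 rose 1.63-fold against CK (log2 change 0.70, SE 0.12, 95% interval 0.44 to 0.97, edgeR adjusted p = 0.00402). With anti-PD-1 alone it rose by 0.44 on the log2 scale (SE 0.12, edgeR adjusted p = 0.0453). With PB-020 alone the log2 difference was 0.33 (SE 0.12, unadjusted p = 0.0203, edgeR adjusted p = 0.874), which did not pass. The call in the combination was kept when any of the 12 tumors was left out. The call with anti-PD-1 alone was lost without any 1 of 9 tumors, kept only without PB-020 tumor 2, anti-PD-1 tumor 1 or combination tumor 3, and its adjusted p was highest, 0.176, without anti-PD-1 tumor 3 (log2 change 0.32). Without anti-PD-1 tumor 1, the tumor high in muscle markers, the log2 change was 0.52 (adjusted p = 0.0312). Of the 150-base windows of Hsp90aa1 transcripts 30.9% also occur in transcripts of another gene, most often Gm12346. Reads from those stretches were divided by estimation if the authors' annotation, which is not given, held both genes.

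Hsp90ab1 (chr17:45567778-45573261) encodes the HSP90 form made in most cells at all times, and its open reading frame was 75.7% identical to that of Hsp90aa1. Its level was 1491, 1469 and 1418 FPKM in CK and 1529, 1519 and 1379 FPKM with PB-020. With anti-PD-1 it was 1765, 1586 and 1699 FPKM, and with the combination 1594, 1482 and 1742 FPKM. Anti-PD-1 tumors lay above all CK tumors, while combination tumor 2 fell within the CK range. The log2 changes were 0.04 with PB-020 (adjusted p = 0.978), 0.23 with anti-PD-1 (adjusted p = 0.129) and 0.16 with the combination (adjusted p = 0.237), none of which passed edgeR's test. The 95% interval in the combination ran from -0.04 to 0.35.

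The balance between the HSP90 forms was read as the ratio of Hsp90aa1 to Hsp90ab1 within each tumor. The ratio was 0.254, 0.223 and 0.232 in CK and 0.263, 0.321 and 0.283 with PB-020. It was 0.234, 0.281 and 0.310 with anti-PD-1 and 0.372, 0.395 and 0.279 with the combination. All PB-020 and combination tumors lay above the CK range, whereas anti-PD-1 tumor 1 lay within it. These ratios are given as a description, with no test.

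**Figure D2:**
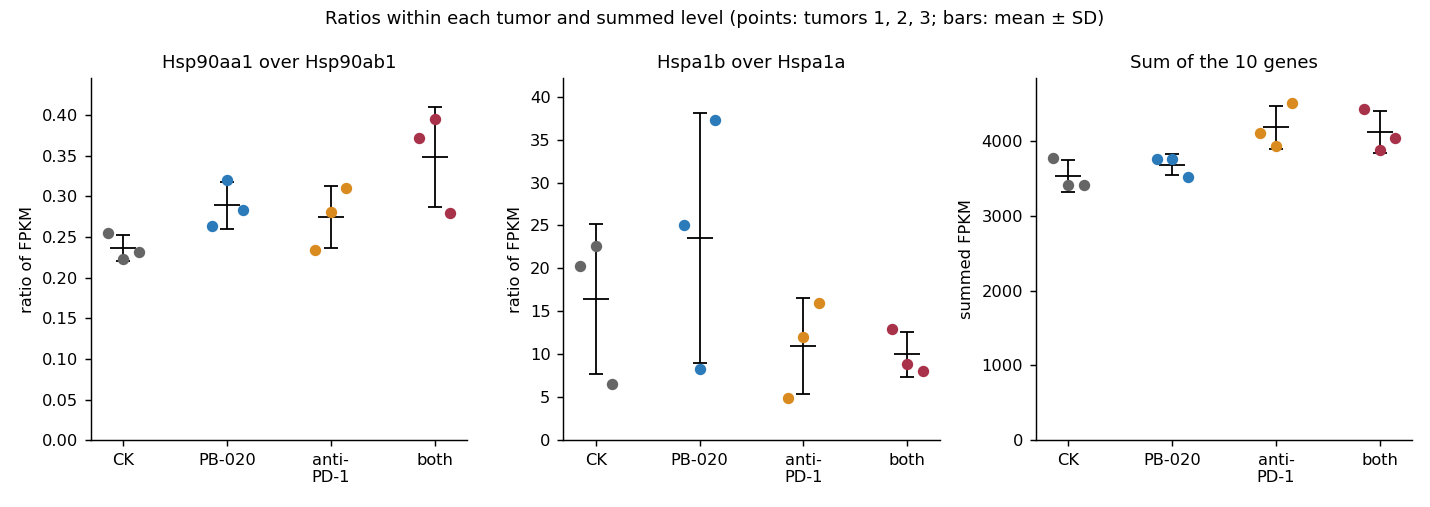
Ratio of Hsp90aa1 to Hsp90ab1 FPKM (left), ratio of Hspa1b to Hspa1a FPKM (middle) and summed FPKM of the 10 genes (right) in each tumor, with vertical axes from 0. Points are tumors 1, 2 and 3 of each group, bars are mean ± SD (n = 3) and "both" is the combination. The HSP90 ratio reached 0.395 in the combination against at most 0.254 in CK, and the Hspa1b to Hspa1a ratio ran from 4.91 to 37.3.

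Among the HSP70 members Hspa8, Hspa1a and Hspa1b, none passed edgeR's test in any comparison. Hspa8 (chr9:40801276-40805202), the HSP70 made at all times that also uncoats clathrin vesicles, had 1686, 1403 and 1463 FPKM in CK and 1585, 1504 and 1547 FPKM with PB-020. It had 1709, 1659 and 1985 FPKM with anti-PD-1 and 1970, 1578 and 1584 FPKM with the combination. The range of every treated group overlapped that of CK. Its log2 changes were 0.05, 0.25 and 0.19 with PB-020, anti-PD-1 and the combination (edgeR adjusted p = 0.98, 0.176 and 0.26). Of its transcript windows 48.7% are shared with other genes, chiefly Gm15459, so its counts may be uncertain. How far depends on the authors' annotation, which is not given.

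Hspa1a (chr17:34969359-34972156) and Hspa1b (chr17:34956429-34959238) are the classical stress-inducible HSP70 genes and lie side by side on chromosome 17. Hspa1b had 24.5, 24.7 and 18.5 FPKM in CK, 35.0, 33.0 and 20.1 FPKM with PB-020, 11.2, 29.7 and 47.3 FPKM with anti-PD-1 and 26.4, 17.1 and 16.9 FPKM with the combination. Hspa1a had 1.21, 1.09 and 2.84 FPKM in CK, 1.40, 3.99 and 0.54 FPKM with PB-020, 2.28, 2.48 and 2.97 FPKM with anti-PD-1 and 2.03, 1.91 and 2.08 FPKM with the combination. Both genes varied more within groups than between them, and for each gene the range of every treated group overlapped that of CK. The anti-PD-1 group held both the lowest and the highest Hspa1b level of the 12 tumors, in tumors 1 and 3.

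The log2 differences of Hspa1b were 0.40 with PB-020, 0.41 with anti-PD-1 and -0.15 with the combination, with edgeR adjusted p of 0.945, 0.628 and 0.857. The intervals were wide. For the combination the 95% interval of Hspa1b ran from -1.23 to 0.94 and that of Hspa1a from -1.10 to 1.60, so a change of the size seen in Hsp90aa1 was not detectable here. The open reading frames of the pair were 99.4% identical, with 8 mismatched bases and 3 gaps, and the division of reads between them is uncertain. Summed as 1 gene, they differed from CK by 0.39, 0.42 and -0.12 on the log2 scale (edgeR adjusted p = 0.941, 0.585 and 0.88).

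The HSP110 genes Hspa4 and Hsph1 encode nucleotide exchange factors of HSP70. Hspa4 (chr11:53259814-53300479) had 57.0, 56.1 and 56.6 FPKM in CK and 56.5, 60.4 and 58.9 FPKM with PB-020. It had 63.9, 63.7 and 63.2 FPKM with anti-PD-1 and 71.5, 60.1 and 62.7 FPKM with the combination. The CK and the anti-PD-1 tumors each lay within 1 FPKM of each other, and all anti-PD-1 and combination tumors lay above CK. Hspa4 rose by 0.21 on the log2 scale in the combination (SE 0.07, edgeR adjusted p = 0.0437) and differed by 0.19 with anti-PD-1 (adjusted p = 0.0979). The call in the combination was lost without any 1 of 9 tumors, kept only without anti-PD-1 tumor 1 or combination tumor 2 or 3, and the log2 change was 0.14 (adjusted p = 0.183) without combination tumor 1.

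Hsph1 (chr5:149616843-149636498), whose promoter held the matches given above, had 26.5, 24.4 and 22.8 FPKM in CK and 31.3, 30.4 and 19.7 FPKM with PB-020. It had 33.8, 30.1 and 41.1 FPKM with anti-PD-1 and 44.9, 30.0 and 31.6 FPKM with the combination. All anti-PD-1 and combination tumors lay above CK, while PB-020 tumor 3 was the lowest of the 12. The log2 differences of 0.53 with anti-PD-1 (SE 0.21) and 0.56 with the combination (SE 0.21) were among the larger ones but did not pass edgeR's test (adjusted p = 0.138 and 0.089).

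The HSP40 genes were both of the middle tier. Dnajb1 (chr8:83608175-83612653), the stress-inducible J-domain partner of HSP70, had 38.02, 34.51 and 34.84 FPKM in CK and 44.2, 48.2 and 33.7 FPKM with PB-020. It had 41.1, 45.3 and 58.1 FPKM with anti-PD-1 and 50.1, 46.6 and 44.7 FPKM with the combination. All anti-PD-1 and combination tumors lay above CK. The log2 differences were 0.25, 0.45 and 0.42 with PB-020, anti-PD-1 and the combination (edgeR adjusted p = 0.874, 0.0753 and 0.0663).

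Dnaja1 (chr4:40722468-40734965), a J-domain protein of the cytosol with broad clients, had 38.1, 35.4 and 37.6 FPKM in CK and 40.1, 38.8 and 36.5 FPKM with PB-020. It had 30.4, 37.5 and 41.3 FPKM with anti-PD-1 and 44.1, 43.7 and 36.6 FPKM with the combination. Every treated group overlapped CK. The log2 differences were 0.08, -0.01 and 0.18 (edgeR adjusted p = 0.953, 0.979 and 0.244), and the interval with anti-PD-1 ran from -0.23 to 0.22. Of the transcript windows of Dnaja1 10.9% are shared with other genes, most often Gm15542.

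Hsf1 (chr15:76477362-76501155) encodes the regulator of the response, whose activity is mostly set after translation. Its level was 28.6, 29.3 and 28.5 FPKM in CK and 34.1, 32.9 and 29.4 FPKM with PB-020. It was 35.8, 33.4 and 35.2 FPKM with anti-PD-1 and 32.2, 30.4 and 34.7 FPKM with the combination. Every treated tumor lay above every CK tumor. Hsf1 rose by 0.29 on the log2 scale with anti-PD-1 (SE 0.07, edgeR adjusted p = 0.0254), and differed by 0.18 with PB-020 (adjusted p = 0.874) and by 0.19 with the combination (adjusted p = 0.0765). The call with anti-PD-1 was lost without any single CK tumor (adjusted p = 0.0657, 0.086 and 0.0729 without CK tumors 1, 2 and 3) and without anti-PD-1 tumor 1 (0.0614) or tumor 3 (0.103).

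**Figure D3:**
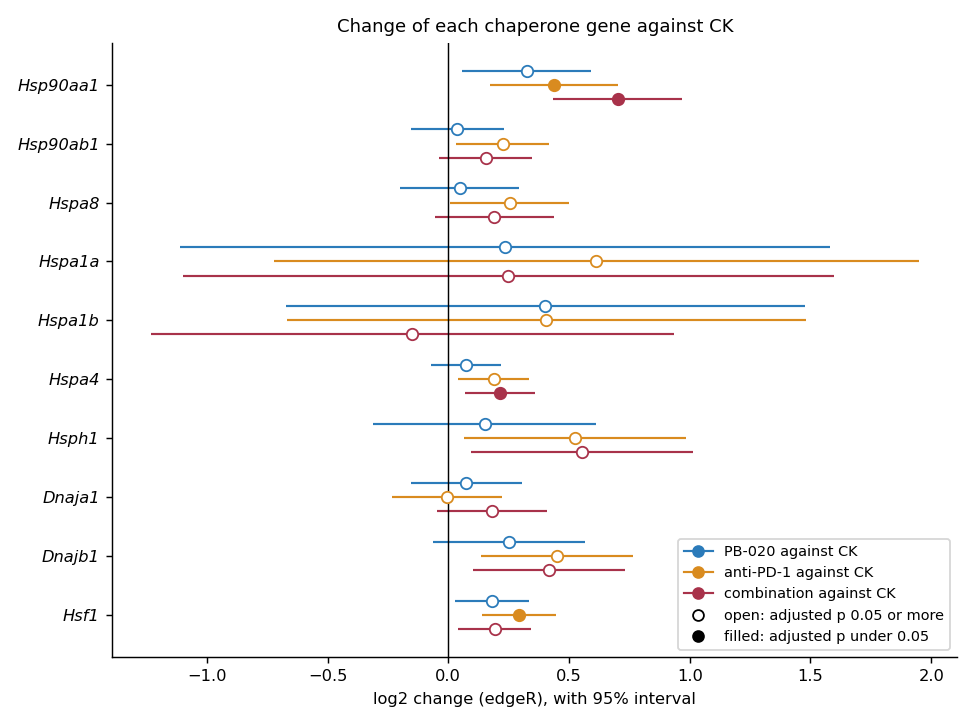
Log2 change of each of the 10 genes against CK (horizontal axis) with its 95% interval from the edgeR fit, for PB-020, anti-PD-1 and the combination. Filled points have an adjusted p under 0.05. The filled points are Hsp90aa1 with anti-PD-1 (0.44) and with the combination (0.70), Hspa4 with the combination (0.21) and Hsf1 with anti-PD-1 (0.29), and the intervals of Hspa1a and Hspa1b are the widest.

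Separation of the single tumors gave a second view of the same values. With PB-020, 2 members had all 3 tumors above all CK tumors (Hsp90aa1 and Hsf1), beside 6.19% of all genes tested. With anti-PD-1 it was 6 members (Hsp90aa1, Hsp90ab1, Hspa4, Hsph1, Dnajb1 and Hsf1), beside 11.8% of all genes. In the combination it was 5 members (Hsp90aa1, Hspa4, Hsph1, Dnajb1 and Hsf1), beside 17.9% of all genes, and 6 when TMM-scaled CPM replaced FPKM, with Hsp90ab1 added. On either scale 0 members had all treated tumors below CK. At an unadjusted p under 0.05, edgeR gave 2 members with PB-020, 7 with anti-PD-1 and 5 with the combination, beside 5.46%, 26.6% and 33.9% of all genes in either direction. DESeq2 called 0, 6 and 4 members at an adjusted p of 0.05 in that order, beside 0.0442%, 12.3% and 20.4% of all genes. Limma on log2(FPKM + 1) called 0, 1 and 1 members, beside 0%, 7.63% and 18.1% of all genes.

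Within groups, most but not all of the 10 genes had the same tumor highest or lowest, as a description with no test. PB-020 tumor 3 was the lowest of its group for 8 members, beside 32.8% of all genes tested. The highest of the group was anti-PD-1 tumor 3 for 7 members (24.9% of all genes), combination tumor 1 for 7 (32.6%) and CK tumor 1 for 7 (28.3%). Anti-PD-1 tumor 1, the tumor high in muscle markers, was the lowest of its group for 5 members (35.9% of all genes) and the highest for 3 (43.2%). Combination tumor 3 was the lowest for 4 (30.4%) and the highest for 3 (36.9%). Summed over the 10 genes, the level was 3406 to 3770 FPKM in CK, 3515 to 3759 with PB-020, 3934 to 4499 with anti-PD-1 and 3875 to 4428 with the combination. Both groups given the antibody lay above CK and PB-020 in this sum, which Hspa8 and the HSP90 genes dominate. As a share of the summed FPKM of all genes this separation was lost, because combination tumor 2, at 0.643%, fell within the range of CK (0.612% to 0.669%) and of PB-020 (0.600% to 0.661%).

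The 6 tumors given anti-PD-1 were set against the 6 not given it, in the same fit and so with the same tumors as above. This contrast averages the antibody's change without PB-020 and its change with PB-020. It does not show that a change holds in both settings. In this contrast 5 members were raised, beside 11.8% of all genes tested. Hsp90aa1 rose by 0.41 on the log2 scale (SE 0.09, edgeR adjusted p = 0.00592), Hspa4 by 0.16 (adjusted p = 0.0254), Hsf1 by 0.15 (adjusted p = 0.0422), Hsph1 by 0.47 (adjusted p = 0.0431) and Dnajb1 by 0.31 (adjusted p = 0.048). Without and with PB-020, the antibody's log2 changes were 0.44 and 0.38 for Hsp90aa1 and 0.19 and 0.14 for Hspa4. They were 0.29 and 0.01 for Hsf1, 0.53 and 0.40 for Hsph1, and 0.45 and 0.16 for Dnajb1. No member passed in the setting with PB-020. Hsp90ab1 (0.17, adjusted p = 0.0635) and Hspa8 (0.20, adjusted p = 0.0905) did not pass, nor did Hspa1a (0.31, adjusted p = 0.626), Hspa1b (-0.07, adjusted p = 0.895) and Dnaja1 (0.05, adjusted p = 0.659). Only the call of Hsp90aa1 was kept in all 12 fits that left out a tumor, while Hspa4 kept it in 7, Hsf1 in 3, and Hsph1 and Dnajb1 in 2 each, with adjusted p of up to 0.108 in the others. DESeq2 called 7 members in this contrast, adding Hsp90ab1 and Hspa8, beside 25.4% of all genes in either direction.

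The 6 tumors given PB-020 were set against the 6 not given it in the same way, and 0 members passed, as did 0% of all genes, with 1 member (Hsp90aa1) at an unadjusted p under 0.05, beside 10.9% of all genes, and 0 called by DESeq2, beside 0.184% of all genes. Hsp90aa1 differed by 0.30 on the log2 scale (SE 0.09, unadjusted p = 0.00469, edgeR adjusted p = 0.309). The other 9 members had log2 differences between -0.08 and 0.13.

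The combination was then compared with each agent alone. Against anti-PD-1, 0 members passed and 0% of all genes did, and 0 members had an unadjusted p under 0.05 (7.26% of all genes) or were called by DESeq2 (0.00737% of all genes). Hsp90aa1 came nearest, with a log2 difference of 0.27 (SE 0.12, unadjusted p = 0.0507, edgeR adjusted p = 0.684) and a 95% interval reaching 0.53. Against PB-020, 0 members were called, beside 1.25% of all genes raised, and Hsp90aa1 was again nearest, at 0.38 (SE 0.12, 95% interval 0.11 to 0.64, unadjusted p = 0.00886, edgeR adjusted p = 0.096). It was the 1 member at an unadjusted p under 0.05 there, beside 22.4% of all genes, and the 1 member that DESeq2 called, beside 8.06% of all genes.

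The interaction, which asks whether the combination departed from the sum of both single changes on the log2 scale, was past the threshold for 0 members and 0% of all genes, and DESeq2 called 0. For Hsp90aa1 it was -0.06 (95% interval -0.44 to 0.32), which leaves room for a departure in either direction. Hsf1 was the 1 member with an unadjusted p under 0.05, at -0.29 (SE 0.10, unadjusted p = 0.0134, edgeR adjusted p = 1), beside 2.29% of all genes. Its level with both agents, 32.5 ± 2.14 FPKM, was close to that with PB-020 alone, 32.1 ± 2.44 FPKM, and below that with anti-PD-1 alone, 34.8 ± 1.26 FPKM (SD, n = 3 each).

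The genes that work with these chaperones were followed in 8 lists of 72 genes, of which 70 were tested. With PB-020 0 of 70 passed the test, with anti-PD-1 3 were raised (4.29%, beside 4.18% of all genes) and 0 lowered, and with the combination 5 were raised (7.14%, beside 8.35% of all genes) and 3 lowered. The raised shares were close to those over all genes tested. Over all 13563 genes, 553 were lowered with anti-PD-1 and 1302 with the combination. In the contrast of 6 against 6 tumors for the antibody, 8 were raised (11.4%, beside 11.8% of all genes) and 6 lowered (8.57%, beside 12.3%).

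HSP90 co-chaperones held most of the raised genes, with 3 of 14 raised and 0 lowered in the combination and a list median log2 change of 0.14. Ppid, a cyclophilin that docks on HSP90, rose by 0.61 (edgeR adjusted p = 0.00329), from 62.1 to 67.6 FPKM in CK to 93.4 to 110.2 FPKM in the combination. Ptges3, the p23 protein that stabilizes client-bound HSP90, rose by 0.38 (adjusted p = 0.00593), from 73.0 to 79.5 FPKM to 95.4 to 101.6 FPKM. Chordc1, an HSP90-binding protein with CHORD domains, rose by 0.54 (adjusted p = 0.0088), from 22.8 to 26.6 FPKM to 31.7 to 41.5 FPKM. The CK and the combination tumors did not overlap for any of these, beside 17.9% of all genes tested with every combination tumor above CK. As these genes were named for their small p in this same comparison, the separation adds no support. With anti-PD-1 alone Ppid was raised by 0.43 (adjusted p = 0.0249) and, named after its value was seen, Stip1, which bridges HSP70 and HSP90, by 0.32 (adjusted p = 0.0424). Ppid was also the 1 gene of the lists raised in the combination against PB-020 (0.44, adjusted p = 0.0371).

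In the list of 8 further HSP70 cofactors and nucleotide exchange factors, which does not include Hspa4 and Hsph1, 0 genes were raised and 2 fell in the combination. Bag5 fell by 0.43 on the log2 scale (edgeR adjusted p = 0.00955), from 19.8 to 22.3 FPKM in CK to 14.98 to 16.11 FPKM, and Bag3 fell by 0.21 (adjusted p = 0.0404), from 33.0 to 34.5 FPKM to 27.5 to 31.1 FPKM. Both encode BAG-domain proteins that release nucleotide from HSP70, and Bag3 is itself a known target of HSF1. Among 11 other cytosolic HSP70, HSP110 and HSP40 genes, only Hspa2, the HSP70 best known from the testis, passed, and it fell by 0.42 (adjusted p = 0.0325), from 7.25 to 9.07 FPKM to 5.02 to 6.44 FPKM.

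Chaperones of other compartments differed from list to list. In the mitochondrial list 2 of 6 rose in the combination, and they were the partners of the mitochondrial chaperonin, Hspd1 (HSP60; 0.35, edgeR adjusted p = 0.0089) and Hspe1 (HSP10; 0.50, adjusted p = 0.0152). Hspd1 was also raised with anti-PD-1 alone (0.31, adjusted p = 0.0249). Of 14 chaperones of the endoplasmic reticulum 0 passed in any of the 3 comparisons with CK, with a list median of -0.03 in the combination, and the smallest p belonged to Dnajc3 (-0.16, adjusted p = 0.1). The 8 CCT subunits, which fold actin and tubulin, were all on the higher side in the combination (list median 0.16), but 0 passed, with Cct6a at 0.22 (adjusted p = 0.0607). Of 6 small heat shock proteins tested 0 passed (Hspb6 -0.32, adjusted p = 0.226), nor did any of 3 other heat shock factors or their binding protein (Hsf4 -0.42, adjusted p = 0.113).

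**Figure D4:**
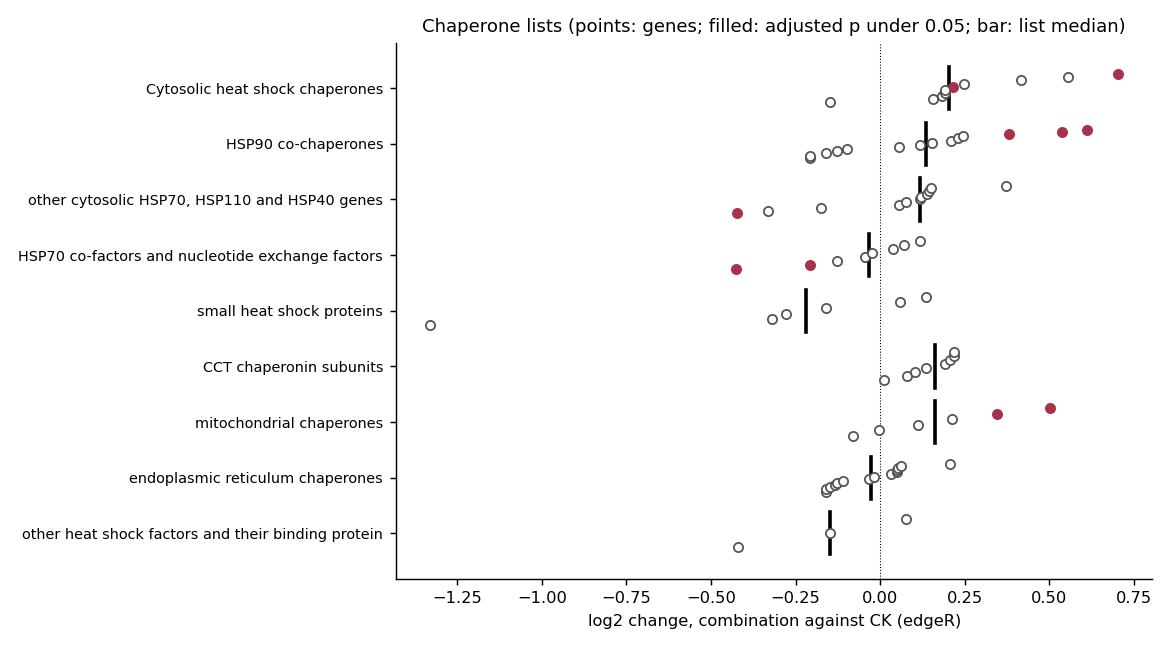
Log2 change in the combination against CK (horizontal axis) of each tested gene of the 10 cytosolic heat shock chaperones and the 8 further lists, 1 row per list. Filled points have an adjusted p under 0.05 by edgeR and black bars are list medians. Filled points to the right are Hsp90aa1, Hspa4, Ppid, Ptges3, Chordc1, Hspd1 and Hspe1, and those to the left are Bag5, Bag3 and Hspa2.

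The genes whose pattern over the 12 tumors was nearest to that of Hsp90aa1 were found among 9870 genes with a mean CPM of at least 10, by the root mean square difference of log2 CPM after each gene's mean was subtracted. They were Hmgn5 (0.0673), Smc2 (0.0790), Bub1 (0.0802), Ska1 (0.0818) and Cep55 (0.0844), beside a median of 0.316 over all genes and an SD of Hsp90aa1 itself of 0.286. Hmgn5 encodes a nucleosome-binding protein, Smc2 a condensin subunit, Bub1 a spindle checkpoint kinase, Ska1 a kinetochore protein and Cep55 a protein of the midbody. As they were chosen for their likeness to Hsp90aa1 over these same tumors, their log2 differences in the combination against CK, 0.66, 0.52, 0.59, 0.67 and 0.59 in that order, are a description that the choice fixed. Levels of the 12 listed proliferation genes, led by Pcna, moved alongside. They summed to 1076 to 1238 FPKM in CK and 1169 to 1410 FPKM with PB-020. The sum was 1326 to 1503 FPKM with anti-PD-1 and 1422 to 1507 FPKM with the combination. With PB-020 0 of 12 were raised and with anti-PD-1 2 of 12, beside 0% and 4.18% of all genes tested. In the combination 7 of 12 were raised, beside 8.35% of all genes tested. Bub1 is also on this proliferation list, and its rise (edgeR adjusted p = 0.0112) was fixed by the choice for likeness. The list is therefore not independent of that choice. The part of the proliferation genes in the change of Hsp90aa1 was not tested.

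**Figure D5:**
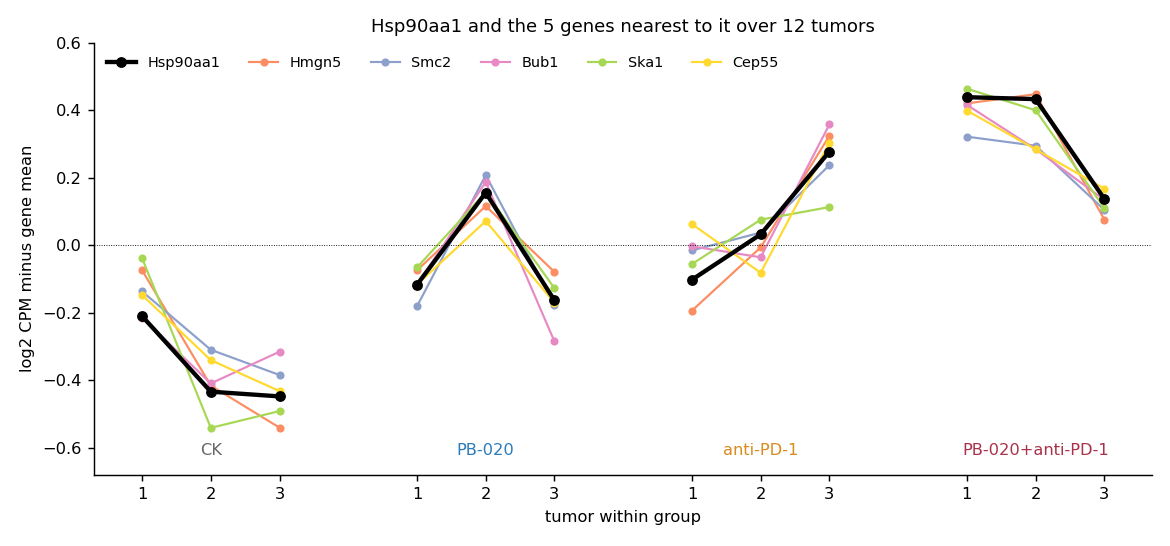
Log2 CPM minus the gene's mean over 12 tumors (vertical axis) of Hsp90aa1 (thick black line) and of Hmgn5, Smc2, Bub1, Ska1 and Cep55, for tumors 1, 2 and 3 of each group (horizontal axis). Lines join tumors of a group only to make the genes easier to follow. The 5 genes were chosen for the smallest difference from Hsp90aa1 over these tumors, so the closeness of the lines is what the choice asked for.

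No gene lay as close to Hspa1b. The 5 nearest were Hist1h2ao (0.363), Tcim (0.371), Hist2h2be (0.381), H1f0 (0.387) and 2210418O10Rik (0.390), beside a median of 0.553 and an SD of Hspa1b of 0.546, and no member was among the nearest 5 of either gene. Immediate early genes, which respond within minutes to handling and other stimuli, had summed levels of 521.3 to 672.4 FPKM in CK, 579.7 to 653.7 with PB-020, 544.4 to 665.0 with anti-PD-1 and 552.7 to 597.9 with the combination, and these ranges overlapped.

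Markers of other cell types also differed between CK and the groups in which Hsp90aa1 was raised. Of 13 T cell markers in the table, led by Cd3g, 10 were raised with anti-PD-1 and 11 with the combination, and their summed level was 15.2 to 21.3 FPKM in CK, 22.3 to 28 with PB-020, 34.7 to 85.7 with anti-PD-1 and 41.4 to 65.4 with the combination. All 5 tested erythroid markers, led by Hbb-bs, fell in each group, from a summed 679.2 to 1556 FPKM in CK to 100.6 to 379.6 with anti-PD-1 and 126.6 to 183.8 with the combination. Of 9 fibroblast markers, led by Col3a1, 3 fell in each group and 1 rose in the combination, although 6 of 9 lay on the higher side in each. The list median log2 changes were 0.46 with anti-PD-1 and 0.32 with the combination. Their summed level went the other way, from 1872 to 2512 FPKM in CK to 895.9 to 1786 with anti-PD-1 and 968.2 to 1373 with the combination. It was 1760 to 1837 FPKM with PB-020. Of 10 macrophage markers, led by Lyz2, 0 passed, while their summed level was 1693 to 2120 FPKM in CK, 1654 to 3191 FPKM with anti-PD-1, where only tumor 1 lay above CK, and 2174 to 2555 FPKM in the combination. Keratinocyte markers, led by Krt14, summed to 78.6 to 117.2 FPKM in CK, 107.8 to 138.7 with PB-020, 131.8 to 183.7 with anti-PD-1 and 166.5 to 207.7 with the combination. Of the 4 tested markers 1 was raised in each of the groups given the antibody. With anti-PD-1 only 2 of the 4 lay on the higher side, with a list median log2 change of -0.69. In the combination all 4 did, with a median of 1.32. The part of these cells in the levels of the chaperone genes was not tested.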

How the data were processed

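RNA of 12 MC38 tumors in 4 groups of 3 was sequenced by Illumina chemistry in pairs of 150 bases. Groups and tumor numbers came from the sample labels. Per the study's methods and the submitters' processing notes, the authors aligned reads with Bowtie2 (the notes also name HISAT) to GRCm38.p6 and quantified genes with RSEM, which divides ambiguous reads. Versions and the annotation are not given in the sources used here. The deposited expected counts are estimates by the authors, whole in 91% of values, and were rounded. The deposited FPKM values, scaled by the authors for length and library total, served for levels. The deposited TPM values and the authors' group means were not used.

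Genes were filtered with filterByExpr (minimum count 10) in edgeR 4.0.16 under R 4.3.3, scaled by TMM and fitted with a robust quasi-likelihood model of 4 group means over 12 libraries. Tests were two-sided, with Benjamini-Hochberg adjustment over 13563 genes and a threshold of 0.05. Intervals do not cover misaligned reads, and members with many counts, such as Hsp90aa1, have little counting error at this depth. The study's thresholds (1.5-fold and an unadjusted p under 0.05) were kept as an alternative. They were applied to the change and p of edgeR, whereas the study used Student's t test, which was not run here. Other alternatives were DESeq2 1.42.0, limma 3.58.1 on log2(FPKM + 1), other filters and scalings, fits without the groups outside a comparison, a block for the replicate number, each tumor left out and Hspa1a with Hspa1b summed. Likeness was computed on log2 CPM with a prior count of 2. The fit was tested on simulated data for the combination against CK. It recovered 32 of 67 genes changed 1.5-fold, 49 of 67 changed 2-fold and 50 of 66 changed 3-fold. Of 13281 unchanged genes it called 8. Changes under 1.5-fold were not simulated, so a member that did not pass may still have changed.

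The members, the lists and the markers were chosen with earlier results of these data known. Named were all 10 members and, from each list, up to 4 genes of smallest p past the threshold in the combination against CK, or otherwise the gene of smallest p. Gene positions and promoters were taken from RefSeq on GRCm38.p6, open reading frames and shared windows from GENCODE M21 transcripts.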

Additional observations from a re-analysis of the deposited data

How the results depend on the processing

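The number of members called was 0 under every alternative run for PB-020 against CK, the combination against anti-PD-1, the interaction and the 6 against 6 contrast for PB-020. For anti-PD-1 against CK, 2 members became 6 with DESeq2 (beside 12.3% of all genes called) and 1 with limma on log2(FPKM + 1) (7.63%). The count was 0 in a fit of only the groups compared (0.0226%). It was also 0 by the rule of 1.5-fold with an unadjusted p under 0.05 (7.18%), and ranged from 0 to 2 when 1 tumor was left out. For the combination against CK, 2 became 4 with DESeq2 (beside 20.4% of all genes called) and 1 with limma (18.1%). The count was also 1 with no filter on low counts (11.3%), with scaling by library size alone (18.5%) and by the 1.5-fold rule (8.52%). It ranged from 1 to 3 without 1 tumor. For the combination against PB-020, 0 became 1 with DESeq2 (beside 8.06% of all genes called) and when only these groups were fitted (11.6%). With 1 tumor left out, the members called ranged from 0 to 1. The 1 call came without anti-PD-1 tumor 1, beside 9.28% of all genes. For the 6 against 6 contrast for anti-PD-1, 5 became 7 with DESeq2 (beside 25.4% of all genes called), 2 with no filter (15.8%) and 0 by the 1.5-fold rule (7.73%). The count ranged from 1 to 4 without 1 tumor, beside 2086 to 3690 of all genes. The genes called over the whole table moved too. For anti-PD-1 against CK, 1120 became 1668 with DESeq2, 1035 with limma, 3 in a fit of only the groups compared and 137 to 1905 without 1 tumor. For the combination against CK, 2434 became 2765 with DESeq2, 2458 with limma and 864 to 3344 without 1 tumor. The cause of these shifts was not tested. Hsp90aa1 stayed past the threshold in the combination against CK in all 20 alternatives (log2 change 0.65 to 0.79, adjusted p = 5.03e-07 to 0.0267) and in the 6 against 6 contrast for anti-PD-1 in all 19 (adjusted p = 2.88e-05 to 0.0217). With anti-PD-1 alone it stayed in 8 of 20 (adjusted p = 0.00552 to 0.176) and Hsf1 in 14 of 20 (0.00567 to 0.103), and Hspa4 stayed in 6 of 20 in the combination (0.01 to 0.183). Of 1570 values of members under alternatives, 42 had another sign, 0 of them for a change that had passed the test. Where 1 tumor was left out, the spread was estimated over the remaining 11 tumors together.

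Tumors with the same number did not deviate together. Their correlation lay between -0.21 and 0.289 over 18 pairs (median -0.0367), with 2 over 0.1, and 3 of 12 tumors correlated best with a tumor of their own number. With the replicate number as a block, the members called were 1 for anti-PD-1 against CK, 1 for the combination against CK and 3 in the 6 against 6 contrast for anti-PD-1, beside 870, 2010 and 2711 of all genes tested.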
